A study of Rattus norvegicus with 6 samples.

Results

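The first steps of catecholamine signalling in the heart muscle cell were followed through 9 genes chosen by name: the receptors Adrb1, Adra1a and Adra1b, the adenylyl cyclases Adcy5, Adcy6 and Adcy9, the cyclic nucleotide phosphodiesterases Pde3a and Pde4d, and the receptor kinase Grk5. They were found in a table of 17487 gene symbols, of which 9205 passed a filter on low counts, and 7 of the 9 passed it. RNA had been measured in whole heart tissue of 6 adult male Wistar rats, an outbred laboratory strain, with 1 library per rat. In the doxorubicin group, 3 rats had been given doxorubicin hydrochloride, an anthracycline chemotherapy drug, at a weekly dose of 3.75 mg/kg through the tail vein over 4 weeks. In the control group, 3 rats had received 0.9% saline by the same route and schedule. No genetic change was named for either group, and the chamber of the heart, the age of the rats and the interval between the last injection and collection were not given in the sources used here.

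Noradrenaline and adrenaline act on the heart mainly through beta1 receptors, which couple through a stimulatory G protein to adenylyl cyclase. The cyclic AMP made there activates protein kinase A, which speeds and strengthens the beat, phosphodiesterases break the cyclic AMP down, and receptor kinases and arrestins switch the receptor off. Alpha1 receptors take another route, through Gq and phospholipase C, and are known for their part in growth of the muscle cell. Loss of beta1 receptors and a rise of receptor kinases are textbook features of the failing heart.

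The libraries held 2219685 to 3508282 counts. Cardiomyocyte markers were abundant in each library, with a summed level over 8 genes of 102898 to 117275 CPM (counts scaled to a common library total) in control and 100738 to 113636 CPM in doxorubicin hearts. Control library 1 stood apart in erythroid markers, which summed to 7056 CPM there and to 648 to 2548 CPM in the other 5 libraries. The 5 atrial markers did not move together. The atrial light chain genes Myl7 and Myl4 were highest in control library 1, where Myl7 was at 164 CPM against 2.06 to 6.42 CPM elsewhere. Sln was at 22.9 CPM there and at 16.8 CPM in control library 3. Nppa, which ventricular muscle also makes under load, was highest in doxorubicin library 1 (3252 CPM, against 444 CPM in control library 1), and the 5 atrial markers summed to 187 to 700 CPM in controls and 287 to 3286 CPM after doxorubicin. Macrophage markers summed to 116 to 140 CPM in controls and 147 to 225 CPM after doxorubicin. Schwann cell and neuron markers summed to 19.0 to 74.8 CPM in controls, highest in library 1, and to at most 39.5 CPM after doxorubicin. They did not move together: Npy alone was at 60.0 CPM in control library 1, while Sox10 was lowest there, at 5.35 CPM. In bulk tissue, fewer cells of a type and less RNA per cell cannot be told apart.

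Between doxorubicin and control hearts, no difference larger than the spread between rats was detected in any of the 7 tested genes. In edgeR's quasi-likelihood test, 0 of the 7 had an adjusted p-value under 0.05, against 0.0543% of all tested symbols, and 0 of the 7 had an unadjusted p under 0.05, against 8.10%. The groups overlapped for each of the 7 genes, while 13.4% of all tested symbols had groups that did not overlap. The log2 fold changes ran from -0.23 to 0.35, 4 above 0 (52.1% of all tested symbols were) and 3 below, with a median of 0.05 beside 0.02 over all tested symbols. DESeq2 also gave 0 of the 7 at either threshold, against 0.575% of all symbols it tested at the adjusted and 5.54% at the unadjusted one.

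**Figure D1:**
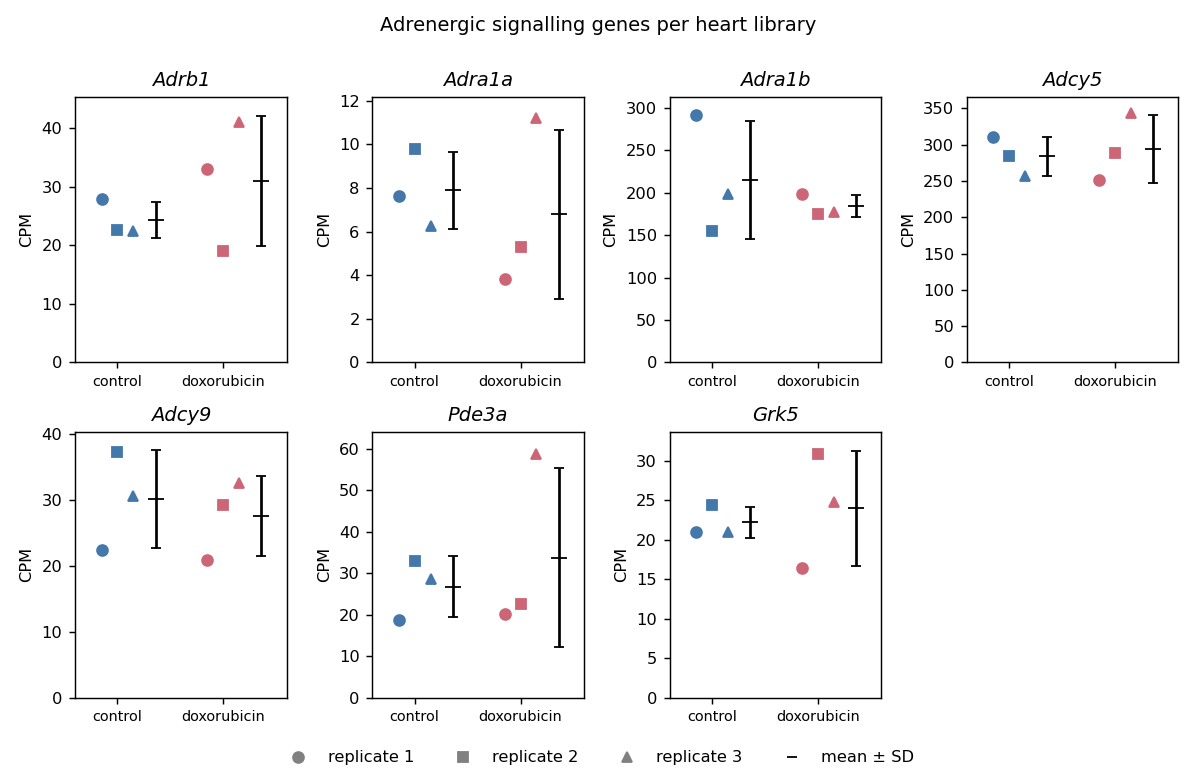
Level in CPM (vertical axis, linear from 0) of each tested gene in the 3 control and 3 doxorubicin libraries; symbols mark the replicate number and black bars the mean ± SD. The groups overlap in every panel, and doxorubicin replicate 3 is the highest point for Adrb1, Adra1a, Adcy5 and Pde3a.

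Adrb1, the beta1 receptor and the main cardiac target of noradrenaline, was at 27.9, 22.7 and 22.4 CPM in control hearts 1, 2 and 3 and at 33.1, 19.0 and 41.0 CPM in doxorubicin hearts 1, 2 and 3. Doxorubicin hearts 1 and 3 lay above all controls and heart 2 lay below all of them. The group means were 24.3 ± 3.08 and 31.0 ± 11.1 CPM (SD, n = 3). The log2 fold change was 0.35 (SE 0.28, edgeR adjusted p 0.782), with a 95% interval of -0.25 to 0.95, that is 0.843-fold to 1.93-fold. In this fit of all 6 libraries, a fall of beta1 receptor transcript below 0.843-fold lay outside that interval. No interval was computed for the fits that left out a library. The fit without doxorubicin library 2 gave 0.62 (SE 0.26), an unadjusted p of 0.0322 and an edgeR adjusted p of 0.468. Without doxorubicin library 3 the value was 0.11 (SE 0.29, edgeR adjusted p 0.970), so its size rested on which doxorubicin hearts were included.

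Adra1a, an alpha1 receptor coupled to Gq, was the least counted of the 7, with 12 to 38 counts per library. It was at 7.64, 9.77 and 6.25 CPM in control hearts and at 3.85, 5.30 and 11.2 CPM in doxorubicin hearts 1, 2 and 3. Here doxorubicin hearts 1 and 2 lay below all controls and heart 3 above all of them. The log2 fold change of -0.19 (SE 0.44, edgeR adjusted p 0.936) had a 95% interval from 0.459-fold to 1.67-fold, the widest of the 7 on the log2 scale. It was -0.75 (SE 0.44, edgeR adjusted p 0.830) without doxorubicin library 3.

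Adra1b, the other alpha1 receptor followed here, was at 291, 155 and 199 CPM in control hearts and at 199, 175 and 177 CPM in doxorubicin hearts. The 3 doxorubicin values lay within the range of the controls, whose highest value was that of library 1, the library with the highest Myl7 and Myl4. Its log2 fold change was -0.23 (SE 0.22, edgeR adjusted p 0.829), and 0.06 (SE 0.17) without that library. The part of atrial tissue in this value was not tested. The log2 ratio of Adra1a to Adra1b counts, which needs no scaling between libraries, was -4.71 ± 0.67 in control and -4.87 ± 0.84 in doxorubicin hearts (SD, n = 3), a difference of -0.16 with a 2-sided exact permutation p of 0.700, where 0.1 is the smallest possible. The difference turned to 0.22 without control library 2 and to 0.23 without doxorubicin library 1.

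Adcy5, a main adenylyl cyclase isoform of heart muscle, had the most counts of the 7 genes, 640 to 1168 per library, and the narrowest interval. Its level was 311, 284 and 257 CPM in control hearts and 251, 288 and 344 CPM in doxorubicin hearts. The doxorubicin values ran from below the lowest control to above the highest. From these values the log2 fold change was 0.05 (SE 0.18, edgeR adjusted p 0.967), with a 95% interval from 0.788-fold to 1.36-fold.

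Adcy9, a cyclase isoform known for its low sensitivity to forskolin, was at 22.5, 37.3 and 30.7 CPM in controls and 20.9, 29.3 and 32.7 CPM after doxorubicin. In both groups heart 1 was the lowest, and 2 of the 3 doxorubicin values fell within the control range. The log2 fold change was -0.12 (SE 0.26, edgeR adjusted p 0.929), with an interval from 0.627-fold to 1.35-fold.

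Pde3a, a phosphodiesterase that hydrolyses cyclic AMP, is inhibited by cyclic GMP and is the target of the inotrope milrinone. It was at 18.7, 32.9 and 28.7 CPM in control hearts and at 20.2, 22.5 and 58.7 CPM in doxorubicin hearts. Doxorubicin hearts 1 and 2 lay within the control range and heart 3 lay above it. A log2 fold change of 0.34 (SE 0.37, edgeR adjusted p 0.843) turned to -0.31 (SE 0.29, edgeR adjusted p 0.889) without doxorubicin library 3, so its direction rested on that library.

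Grk5, a kinase that phosphorylates activated receptors, was at 21.0, 24.4 and 21.0 CPM in control hearts and at 16.4, 30.9 and 24.8 CPM in doxorubicin hearts. Heart 1 of the doxorubicin group lay below the controls, and hearts 2 and 3 lay above them. Grk5 had a log2 fold change of 0.12 (SE 0.27, edgeR adjusted p 0.934), with an interval from 0.729-fold to 1.62-fold.

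**Figure D2:**
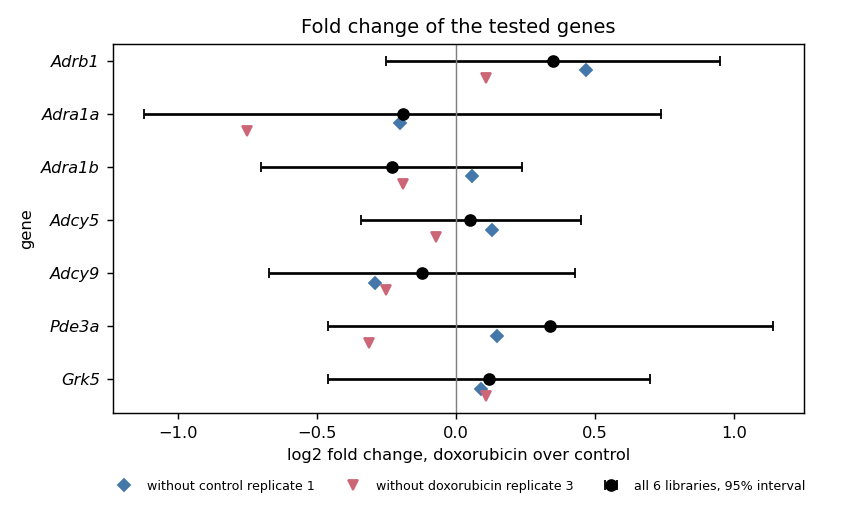
Log2 fold change, doxorubicin over control (horizontal axis), of each tested gene with its 95% interval from edgeR (black), and the value without control replicate 1 (blue diamonds) or without doxorubicin replicate 3 (red triangles). All intervals span 0, and Pde3a moves from 0.34 to -0.31 without doxorubicin replicate 3.

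The doxorubicin hearts differed among themselves in these genes. Library 3 was the highest of the 6 for 4 of the 7 genes, against 20.6% of all tested symbols, and library 1 was the lowest for 4 of the 7, against 17.4%. The SD of log2 CPM was larger in doxorubicin than in control hearts for 5 of the 7 genes, against 47.5% of all tested symbols. For Pde3a the highest doxorubicin value was 2.90 times the lowest, against 1.76 times among controls, and for Adrb1 these ratios were 2.15 and 1.24. Adra1b was the opposite, with 1.13 among doxorubicin and 1.88 among control hearts. These counts describe 6 rats, and no test was made of them.

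The symbols closest to Adrb1 in their profile over the 6 libraries, among symbols with a mean of at least 5 CPM, were Dnajc5, Dusp8 and Cacnb2. Their root mean square differences from its mean-centred log2 CPM were 0.110, 0.115 and 0.117. Cacnb2, the beta subunit of the L-type calcium channel and also in the pathway lists below, was at 90.9, 68.9 and 85.5 CPM in controls and at 121, 71.8 and 139 CPM after doxorubicin. Its lowest doxorubicin value was in heart 2, as for Adrb1, which follows from the choice of symbols by likeness. None of the 3 passed the edgeR test, with adjusted p-values of 0.738, 0.771 and 0.675.

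Adcy6 and Pde4d could not be assessed. Adcy6, a close paralog of Adcy5, stood on 2 rows of the table and had 0 counts in each library, and Pde4d, a phosphodiesterase found near beta receptors and the ryanodine receptor, stood on 5 rows and had 1 count in control library 2, 1 in doxorubicin library 1 and 0 in the others. Taking 3 counts as the limit, a count of 0 allows up to 0.852 to 1.33 CPM per library, which covers counting error only. Most symbols that stood on several rows held few counts, although some did not (the highest total was 9784): their median total over the 6 libraries was 1.00 for 599 symbols, against 97.0 for the 16888 symbols on 1 row, and 72.8% of them had fewer than 10 counts in all, against 36.1%. Among the other pathway genes, 11 of the 15 symbols on several rows had fewer than 10 counts, among them Gnas, which encodes the stimulatory G protein itself and had 8 counts over 6 rows, and the transcription factor genes Creb1 (1 count) and Crem (0 counts). Gnas is a gene that nearly all cells use. The levels of Adcy6 and Pde4d in these hearts are therefore not known from this table, and how reads shared between rows were counted was not stated.

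**Figure D3:**
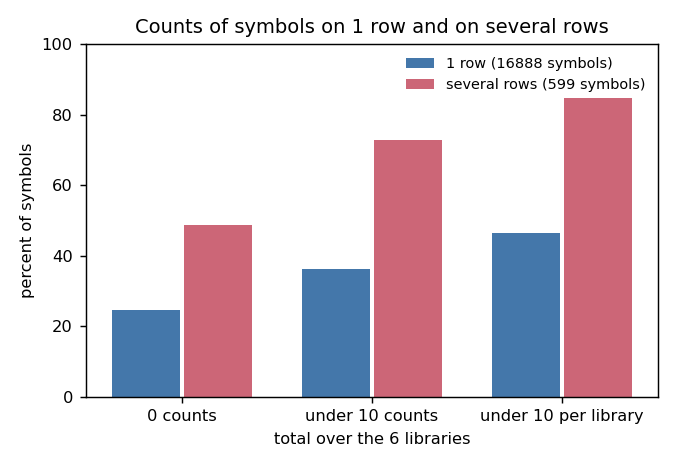
Percent of symbols (vertical axis) whose total over the 6 libraries was 0, under 10 or under 10 per library on average, for symbols on 1 row (blue) and on several rows (red) of the table. Low totals are more common for symbols on several rows, such as Adcy6 and Pde4d.

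To place the 7 genes among their partners, 157 other genes of the pathway were grouped into 10 lists by role, and 111 of them were tested. The lists were drawn up with earlier results of these data known, so the shares below are a description and not a test of the pathway. With edgeR 1 of the 111 passed the adjusted threshold (0.901%, against 0.0543% of all tested symbols), and 16 had an unadjusted p under 0.05 (14.4%, against 8.10%), 6 higher and 10 lower in doxorubicin hearts, where 4.00% and 4.11% of all tested symbols were. For 15 of the 111 the groups did not overlap, a share of 13.5% beside 13.4% of all tested symbols. Without control library 1 there were 10 genes at an unadjusted p under 0.05 of the 114 then tested (8.77%, against 5.61%) and 0 past the adjusted threshold.

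**Figure D4:**
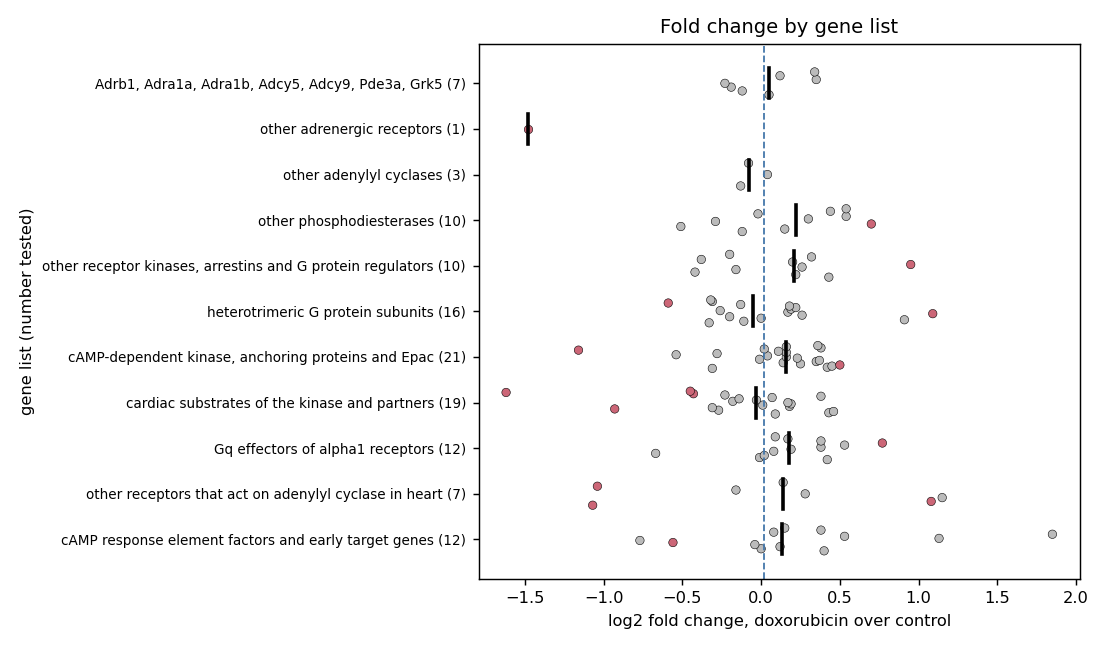
Log2 fold change, doxorubicin over control (horizontal axis), of each tested gene by list; red points have an unadjusted edgeR p under 0.05, black bars are list medians and the dashed line is the median of all tested symbols. The top row, with the 7 genes followed here, has no red point and a median of 0.05.

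Of the 5 other adrenergic receptors listed, 1 was tested, Adra1d, because Adra2a, Adra2b, Adra2c and Adrb3 had at most 8 counts in any library. Adra1d, the remaining alpha1 receptor, was at 47.7, 18.2 and 16.8 CPM in control hearts and at 10.6, 12.5 and 6.48 CPM in doxorubicin hearts. All doxorubicin values lay below all control values, and control library 1 was far above the others. The log2 fold change was -1.48 (SE 0.41, unadjusted p 0.00279, edgeR adjusted p 0.249). Without control library 1 it was -0.82 (edgeR adjusted p 0.821).

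None of the 3 other cyclases tested had an unadjusted p under 0.05. Adcy4, the most counted of them, was at 34.8 ± 13.7 CPM in controls and 35.9 ± 8.11 CPM after doxorubicin (SD, n = 3). Among the 10 other phosphodiesterase entries tested, 0 passed the adjusted threshold and 1, Pde4b, had an unadjusted p under 0.05, beside 8.10% of all tested symbols. Pde4b, a cyclic AMP phosphodiesterase of the same subfamily as Pde4d, was at 14.1, 17.3 and 19.9 CPM in controls and at 28.9, 21.8 and 33.3 CPM after doxorubicin, all of them above the controls. Its log2 fold change was 0.70 (SE 0.26, edgeR adjusted p 0.470). Pde4a, another member of that subfamily, lay the other way, at 38.2 ± 5.02 CPM in controls and 26.8 ± 10.5 CPM after doxorubicin (SD, n = 3; log2 fold change -0.51, SE 0.28, edgeR adjusted p 0.679), again without overlap. Pde8a and Pde9a were higher in each doxorubicin heart than in each control, with log2 fold changes of 0.44 (SE 0.26) and 0.54 (SE 0.30). Pde4a, Pde8a and Pde9a were chosen after their values were seen, because with Pde4b they make up the 4 of 10 entries whose groups did not overlap, beside 13.4% of all tested symbols. Pde4dip, the most counted entry, encodes a protein that binds phosphodiesterase rather than an esterase, and was at 1049 ± 45.8 CPM in controls and 1289 ± 477 CPM after doxorubicin.

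Among 10 tested receptor kinases, arrestins and G protein regulators, 0 passed the adjusted threshold. Rgs2, which speeds the switching off of Gq, had the smallest p of this list. It was at 16.4, 18.7 and 16.8 CPM in control hearts and at 31.8, 28.4 and 39.5 CPM in doxorubicin hearts, with a wide gap between the groups. The log2 fold change was 0.95 (SE 0.24, unadjusted p 0.00137, edgeR adjusted p 0.182), and it was 0.92 without control library 1. Rgs5, the most counted of the list and also a pericyte marker, was at 83.7 ± 29.9 CPM in controls and 104 ± 34.3 CPM after doxorubicin. Grk2, the other main receptor kinase of the heart beside Grk5, was at 79.9 ± 18.5 CPM in controls and 71.3 ± 5.68 CPM after doxorubicin (log2 fold change -0.16, SE 0.20, edgeR adjusted p 0.876), and its log2 fold change turned to 0.05 without control library 1.

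Of 16 tested G protein subunits 0 passed the adjusted threshold and 2 had an unadjusted p under 0.05, beside 8.10% of all tested symbols. Gnao1, an inhibitory alpha subunit, was at 16.0 ± 6.29 CPM in controls and 33.8 ± 15.3 CPM after doxorubicin (SD, n = 3; log2 fold change 1.09, SE 0.36, edgeR adjusted p 0.378), and its groups overlapped. Gng11, a gamma subunit, was at 133 ± 21.0 CPM in controls and 88.0 ± 21.7 CPM after doxorubicin (log2 fold change -0.59, SE 0.21, edgeR adjusted p 0.451), with all doxorubicin values below all controls. Gnai2, the most counted subunit, had a log2 fold change of -0.20 (SE 0.20), which turned to 0.03 without control library 1. Of 21 tested genes for protein kinase A, its anchoring proteins and the cyclic AMP sensors Epac, 16 had a log2 fold change above 0 (52.1% of all tested symbols did) and 5 below, with a median of 0.16 beside 0.02 over all, and 0 passed the adjusted threshold. This median was 0.13 without control library 1 (0.02 over all) and 0.07 without doxorubicin library 3 (0.01 over all). Prkaca, the main catalytic subunit of the kinase, was at 589 ± 121 CPM in controls and 485 ± 35.5 CPM after doxorubicin (log2 fold change -0.28, SE 0.19, edgeR adjusted p 0.743). Prkar1b, a regulatory subunit with 5 to 23 counts per library, had a log2 fold change of -1.16 (SE 0.49, edgeR adjusted p 0.551), and its groups did not overlap.

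The gene past the adjusted threshold was among the 19 tested substrates of the kinase and their partners. Ryr2, which forms the channel that releases stored calcium in heart muscle, fell from 549, 775 and 785 CPM in control hearts to 201, 320 and 166 CPM after doxorubicin, by a log2 fold change of -1.62 (SE 0.25, edgeR adjusted p 0.0440). It was listed with its earlier result in these data known. It stands on 2 rows of the table, so its level may be incomplete, and it lost the call in 9 of 19 alternatives, that without control library 1 included (edgeR adjusted p 0.105). Hcn2, a pacemaker channel that binds cyclic AMP directly, was at 425, 314 and 234 CPM in controls and at 160, 186 and 164 CPM after doxorubicin, without overlap. Its log2 fold change was -0.93 (SE 0.22, unadjusted p 0.000762, edgeR adjusted p 0.157), and -0.68 without control library 1, and DESeq2 and the edgeR fit with no filter called it. Tnni3, the cardiac troponin I gene, the most counted of this list, had a log2 fold change of -0.45 (SE 0.20, edgeR adjusted p 0.594), with its highest value in control library 1.

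Of 12 tested Gq effectors, 10 had a log2 fold change above 0 (52.1% of all tested symbols did), with a median of 0.18 beside 0.02 over all, and 0 passed the adjusted threshold. Without control library 1 the median was 0.08, beside 0.02 over all. Prkcd, a protein kinase C isoform, was at 24.1, 42.6 and 34.1 CPM in controls and at 69.0, 54.3 and 47.7 CPM after doxorubicin, without overlap (log2 fold change 0.77, SE 0.24, edgeR adjusted p 0.364). Summed macrophage markers were at 116 to 140 CPM in controls and at 147 to 225 CPM after doxorubicin. Their sum was highest in doxorubicin heart 2. Prkcd was highest in doxorubicin heart 1, and so was the marker Cd163, at 16.7 CPM. Of the 7 markers only Mrc1 had groups that did not overlap. At an unadjusted edgeR p under 0.05 were 2 higher and 0 lower after doxorubicin, beside 8.10% of all tested symbols. These were Cd163 (log2 fold change 1.15, SE 0.44) and Mrc1 (0.82, SE 0.36), with values of 0.86 and 0.43 without control library 1. Adgre1 was the only marker with a log2 fold change below 0 (-0.15). The part of macrophages in the Prkcd value was not tested. Rcan1, a calcineurin regulator and the most counted of this list, was at 584 ± 120 CPM in controls and 620 ± 228 CPM after doxorubicin.

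Of 7 tested genes for receptors of other ligands that act on adenylyl cyclase, or for their partner proteins, 0 passed the adjusted threshold. At an unadjusted edgeR p under 0.05 were 3 of the 7, 1 higher and 2 lower after doxorubicin, beside 8.10% of all tested symbols. Left at that threshold without control library 1 was 1 of these 7, Aplnr, beside 5.61% of all symbols then tested. Without doxorubicin library 3 it was again Aplnr alone. Aplnr, the apelin receptor, was at 184, 119 and 123 CPM in controls and at 79.6, 84.6 and 38.3 CPM after doxorubicin, without overlap (log2 fold change -1.07, SE 0.28, unadjusted p 0.00175, edgeR adjusted p 0.202), and DESeq2 called it. Summed endothelial markers, a cell type in which this receptor is known, were at 1044 to 1243 CPM in controls and 860 to 1175 CPM after doxorubicin, and their part in this value was not tested. Chrm2, the muscarinic receptor that opposes beta1 signalling, was at 67.8 CPM in doxorubicin heart 3, the heart with the highest Adrb1 and Pde3a, and at 9.93 to 21.8 CPM in the other 5. It was chosen after its values were seen, and its log2 fold change of 1.15 (SE 0.59, edgeR adjusted p 0.666) became 0.05 without that library.

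**Figure D5:**
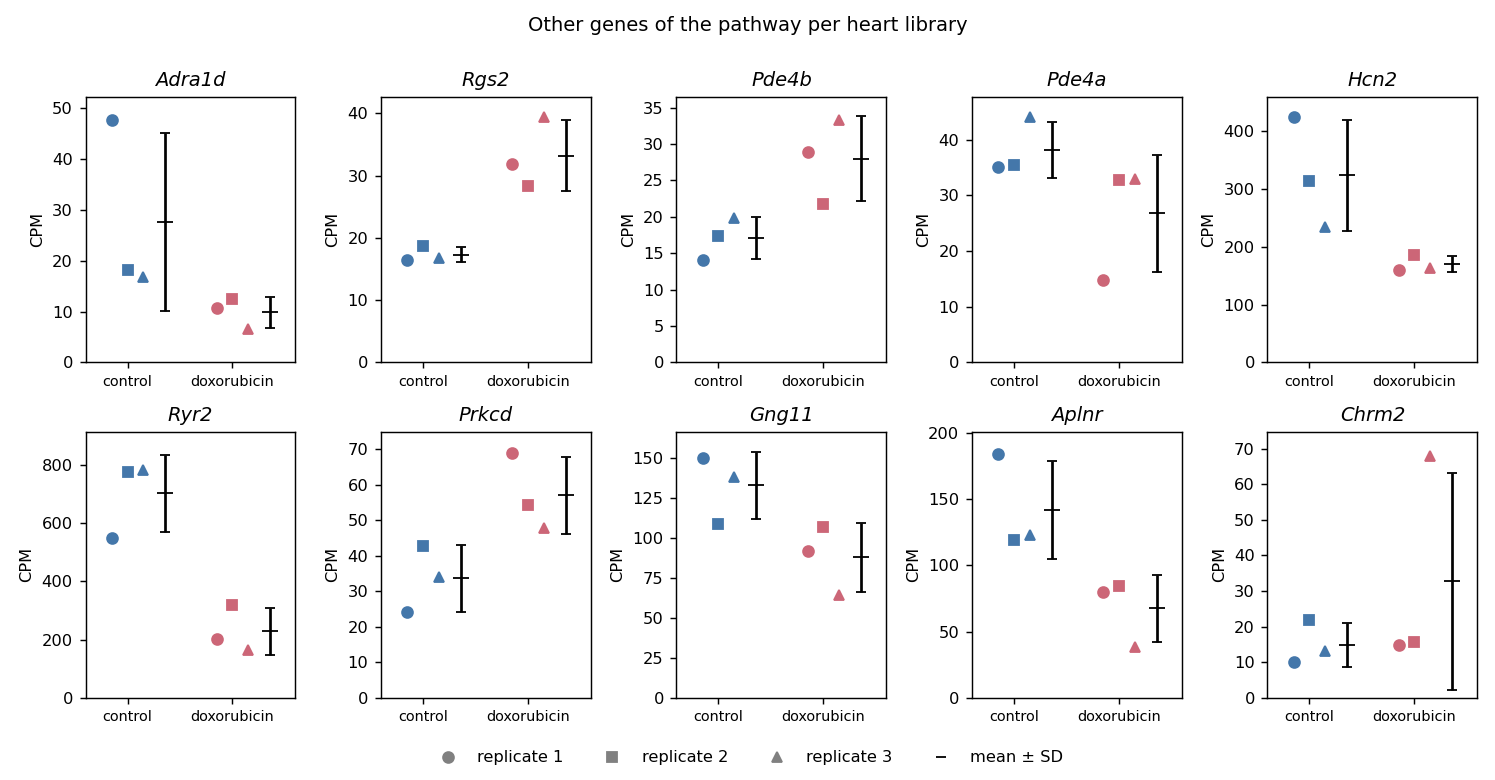
Level in CPM (vertical axis, linear from 0) of 10 other pathway genes in the 3 control and 3 doxorubicin libraries; symbols mark the replicate number and black bars the mean ± SD. The groups are separate for the first 9 genes, and Chrm2 is high in doxorubicin replicate 3 only.

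Of 12 tested cyclic AMP response element factors and early target genes, 0 passed the adjusted threshold, 8 had a log2 fold change above 0 (52.1% of all tested symbols did) and 4 below, and the median was 0.13 beside 0.02 over all. That median was 0.15 without control library 1 (0.02 over all) and 0.03 without doxorubicin library 3 (0.01 over all). Dusp1, the phosphatase gene that was the most counted of them, was at 158 ± 60.0 CPM in controls and 107 ± 27.3 CPM after doxorubicin (SD, n = 3; log2 fold change -0.56, SE 0.26, edgeR adjusted p 0.610), and the value was -0.20 without control library 1. Crem and Creb1, which belong to this list, were among the symbols on several rows and could not be read.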

How the data were processed

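The deposited table gives raw, unnormalized read counts by feature, with a column for each of the 6 libraries, as the authors made them. The submitters' processing notes name FastQC, Trimmomatic, STAR, HTSeq and the build mRatBN7.2; versions, annotation, counting mode and strand use were not given in the sources used here, so overlapping or antisense genes and close paralogs such as Adcy5 and Adcy6 may share reads. Per the labels' protocols, mRNA libraries were prepared from total RNA (Watchmaker) and read on an Illumina NovaSeq machine. No coordinates are printed, because the gene reference at hand is of another build.

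The rows of a symbol were summed (18473 rows, 17487 symbols). The fit was edgeR 4.0.16 in R 4.3.3, with TMM scaling, filterByExpr (minimum count 10, minimum total 15), robust dispersion and the quasi-likelihood F test on treatment, adjusted by the Benjamini-Hochberg method over all 9205 tested symbols at a threshold of 0.05. It was tested on simulated data. SE is the absolute log2 fold change over the root of F, and intervals use its t distribution. CPM are counts scaled to a common library total with TMM factors, and the floor of 3 counts was 0.852 to 1.33 CPM. DESeq2 1.42.0 and limma 3.58.1 served as alternatives, with the other settings given in the closing section, and Python 3.11.15 with scipy 1.17.1 for permutation tests.

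The 9 genes, the pathway and marker lists and the tests were chosen with earlier results of these data known. Some genes of the pathway and marker lists are not reported here and were left out of the list counts. Other genes are named if past the adjusted threshold, most counted in their list, or with an unadjusted p under 0.05 without overlap (up to 20), and otherwise as said; Gnao1, Grk2 and the symbols on several rows were also added after their values were seen. Of the 3 planned count ratios, 1 is given, because Adcy6 and Pde4d were at or near 0. Replicate numbers are those of the titles and mark different rats.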

Additional observations from a re-analysis of the deposited data

How the results depend on the processing

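The use of 1-row symbols only and all counts over the pathway lists were added after the data were seen; every other alternative was chosen earlier and run, except for the ratios of Adcy5 to Adcy6 and of Pde3a to Pde4d. None of the 7 genes passed the adjusted threshold in any of its 20 alternatives. The count at an unadjusted p under 0.05 ranged from 0 to 1 over the fits that each left out 1 library and was 0 in every other one; the 1 was Adrb1 without doxorubicin library 2.

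Adrb1 kept its direction in all 20 (0.11 to 0.62). Leaving out 1 library at a time gave -0.75 to 0.09 for Adra1a, -0.40 to 0.06 for Adra1b, -0.07 to 0.16 for Adcy5, -0.29 to 0.06 for Adcy9, -0.31 to 0.61 for Pde3a and -0.09 to 0.34 for Grk5. Adra1a became 0.09 without doxorubicin library 1, Adra1b 0.06 without control library 1, and Pde3a -0.31 without doxorubicin library 3. Adcy5 became -0.02 without control library 3, -0.07 without doxorubicin library 3, -0.07 with a correction for gene span and -0.05 with that correction and the replicate block. Adcy9 became 0.06 without control library 2 and 0.05 without doxorubicin library 1. Grk5 became -0.09 without doxorubicin library 2 and -0.01 with the gene span correction and the replicate block. The difference in the Adra1a to Adra1b log2 ratio ranged from -0.61 to 0.23 over the fits that left out 1 library, with 0.22 without control library 2 and 0.23 without doxorubicin library 1.

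Over all symbols, against 5 genes past the adjusted threshold, DESeq2 called 75, no filter 61, non-robust dispersion 1, a floor of 5 on mean CPM 1, only 1-row symbols 1, library size only 0 and voom 0, the gene span correction 13, the replicate block 13 and both together 13. Leaving out 1 library gave 0 to 35. For the pathway lists, against 1 gene, DESeq2 called 3 and no filter 2, while library size only, voom, a floor of 5 on mean CPM, non-robust dispersion and only 1-row symbols gave 0, and leaving out 1 library gave 0 to 1. Their count at an unadjusted p under 0.05 was 10 to 20 without 1 library, against 16. The cause of these changes was not tested. Same-numbered libraries did not deviate together (mean correlation -0.07 over 3 pairs, -0.19 to 0.02), so the replicate block is given only here, and it changed no call among the 7 genes. Adra1a had the fewest counts per library of the 7 and the widest interval; how much of that width is counting error was not tested.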
